A study of Mus musculus with 16 samples.

Results

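CD4 single positive thymocytes labelled mature (mSP) from mice without CNS4 were compared with those from mice with it, by ATAC-seq, in which a transposase tags open chromatin. CNS4 is a conserved non-coding sequence of Foxp3, the gene of the transcription factor that defines regulatory T (Treg) cells. The comparison took in every peak with a mean normalised read count of at least 10 in the 4 mSP libraries, which was 70886 of the 73442 peaks of the table. The libraries came from thymus of C57BL/6J mice: 2 mice of genotype CNS4FL/YFoxp3GFP/Y, called sufficient here, and 2 of genotype CNS4KO/YFoxp3GFP/Y, called deficient, with 1 mSP library each. All 4 mice carried the Foxp3-GFP reporter allele, and no age is stated in the labels used here. The mSP gate took CD4+ CD8- cells that were CD25-, Foxp3-GFP-, high for TCRβ and low for CD24, so cells positive for the reporter were left out. The same mice also gave libraries of semimature cells (smSP), of CD25+ Foxp3-GFP- preTreg cells and of Foxp3-GFP+ Treg cells.

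Foxp3 is controlled by its promoter and by several conserved non-coding sequences in and around the gene, which act at different steps of Treg cell formation and maintenance. Mature single positive thymocytes are the last CD4 stage in the thymus: they have passed selection, lose CD24, gain Klf2 and its target S1pr1, which guides them out, and are one source of Treg precursors. Accessible sites at gene starts are mostly promoters, and those away from them include enhancers.

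Both libraries of 1 deficient mouse were labelled inconsistently: the title of deficient mSP library 2 says mSP and its description imSP, and the smSP library of the same mouse has the reverse. Titles were followed, and results with the other library of that mouse in its place are given where they matter. Over peaks, deficient library 2 correlated at 0.949 to 0.954 with the other mSP libraries and at 0.906 to 0.931 with the smSP libraries, as a description, since all share the same peak set. In all 4 mice the libraries labelled mSP had the higher signal at Cd24a, whose product marks the less mature cells, and the lower signal at S1pr1 and Klf2, so these genes ran against the sort labels in both genotypes. Not every stage marker did: Cd69, of the less mature cells, was lower in the mSP libraries of all 4 mice (median log2 differences from -0.32 to -0.10), and Ccr9, Sox4 and Satb1 went both ways. The median log2 difference of the Cd24a peaks, mSP minus smSP, was 0.95 and 0.74 in the sufficient and 0.94 and 0.97 in the deficient mice, and that of the S1pr1 peaks ran from -1.14 to -0.43. T lineage genes were accessible, with the strongest Cd4 peak at 418, 396, 513 and 400.4 normalised reads. The libraries held 9416774 and 8841355 reads in peaks in sufficient and 7076332 and 5585827 in deficient mice, with medians of 64, 61, 48 and 38 reads per peak, so deficient cells were read less deeply and weak peaks have the widest error. In bulk libraries, fewer cells of a type and less accessibility per cell cannot be told apart. Where 4 values follow each other here, they are the normalised read counts of sufficient mice 1 and 2 and deficient mice 1 and 2, in that order, and folds are log2, deficient minus sufficient, on values with 1 added.

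Loss of CNS4 was accompanied by few changes in mSP cells, and these differed in kind by direction. Of the 70886 peaks, 296 (0.418%) passed an adjusted p of 0.05 in limma, of which 241 (0.340%) were higher and 55 (0.0776%) lower in deficient cells. The median mean signal was 77.0 for the lower and 401 for the higher peaks, against 56.6 over all peaks, and the median fold was -1.01 and 0.56. Only 12 higher but 30 lower peaks had a fold of at least 1 in size. The genotypes did not overlap at any of the 296 peaks, which was true of 39.7% of all peaks. Without overlap, leaving out a single library cannot reverse the sign of a fold, so a kept sign is no further evidence. edgeR called 295 of the 296 and 525 peaks (0.741%) in all, while DESeq2 called 98 and gave no adjusted p for 88 of the 296. With 2 mice per genotype the count rested on single libraries: it was 6 without sufficient mouse 2, 265 without sufficient mouse 1, 770 without deficient mouse 1 and 1756 without deficient mouse 2, and it was 3 when the other library of deficient mouse 2 took the place of the one titled mSP. All 296 folds kept their sign whichever library was left out, but only 5 peaks were called in every such fit, among them those at Serpinb10, LOC115487113 and Hsp90ab1.

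**Figure D1:**
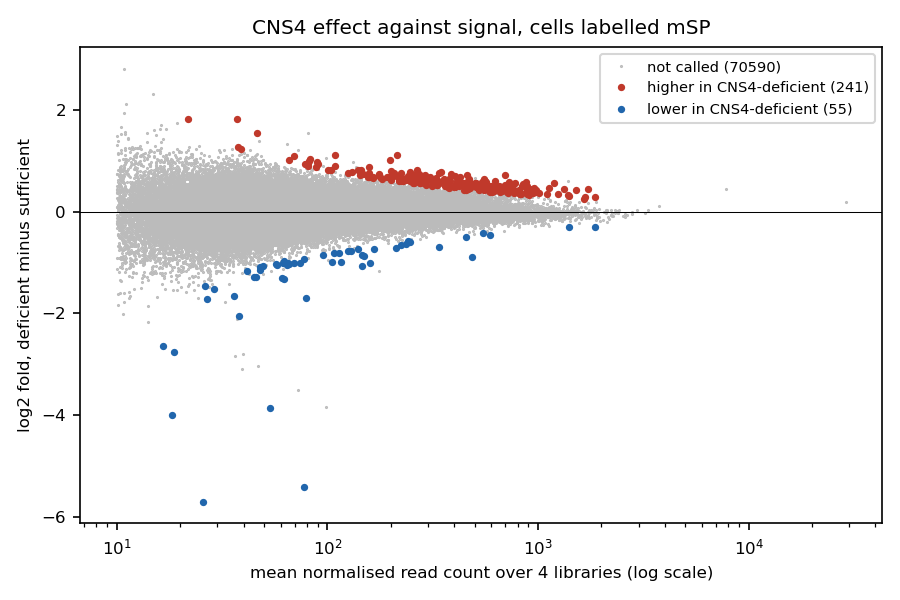
Each point is 1 of the 70886 peaks, with the mean normalised read count of the 4 mSP libraries on a log axis and the log2 fold of deficient over sufficient cells. The 241 higher peaks lie mostly at high signal with small folds, and the 55 lower peaks reach folds of -5.70.

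The peak taken here as the deleted element had the largest fold of the called peaks, at -5.70, though not the lowest adjusted p. The peak at chrX:7570739-7571052 (mm10), in the body of Ppp1r3f, a gene for a regulatory subunit of protein phosphatase, lies 8.78 kb upstream of the Foxp3 start. It had 47.7, 54.7, 0 and 0 normalised reads, from 56, 61, 0 and 0 reads. Both deficient libraries were thus without a read, and no other tested peak with a mean above 10 in sufficient cells was at 0 in both. Counting 3 reads over both deficient libraries together as the floor, the signal was at least 26.7-fold lower, and the adjusted p was 2.80e-05 in limma; without sufficient mouse 2 it was 0.380. The same peak was at 0 in the deficient smSP, preTreg and Treg libraries.

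The rest of the Foxp3 neighbourhood was not called. Next to the deleted peak, the one at chrX:7572485-7572749 had 89.4, 132.7, 74.6 and 104.8 normalised reads, and the genotypes overlapped (fold -0.30, adjusted p = 0.683). The strongest Ppp1r3f start peak had 338, 339.7, 342 and 372 normalised reads, a fold of 0.07. Peaks inside Foxp3 and at its far end, beside Ccdc22, held 0 to 2.87 normalised reads in every mSP library and were too weak to be tested, in cells sorted as negative for Foxp3-GFP. Of the 8 tested peaks of this neighbourhood, only the CNS4 peak passed, and the median fold was -0.07.

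Far from Foxp3, on chromosome 1, 2 neighbouring peaks were almost absent in deficient cells. The peak at chr1:107533818-107534102, in the body of Serpinb10, a serine protease inhibitor gene, had 170, 133, 2.29 and 2.87 normalised reads. The peak at chr1:108040935-108041207, near the uncharacterised locus LOC115487113, had 105, 95.9, 3.44 and 10.0. Both deficient values lay far below both sufficient ones, with folds of -5.40 ± 0.36 (SE; adjusted p = 1.41e-11) and -3.85 ± 0.37 (adjusted p = 2.16e-07). The third peak of this stretch, at Serpinb2, had 26.4, 52.0, 22.9 and 23.0 and was not called (fold -0.67). The same loss stood in the other populations of these mice: at Serpinb10 the folds were -5.67 in smSP, -4.20 in preTreg and -3.32 in Treg cells, and at LOC115487113 -3.63, -5.25 and -1.42, the last of these not called. Both peaks were also called when deficient mouse 2 was represented by its other library.

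**Figure D2:**
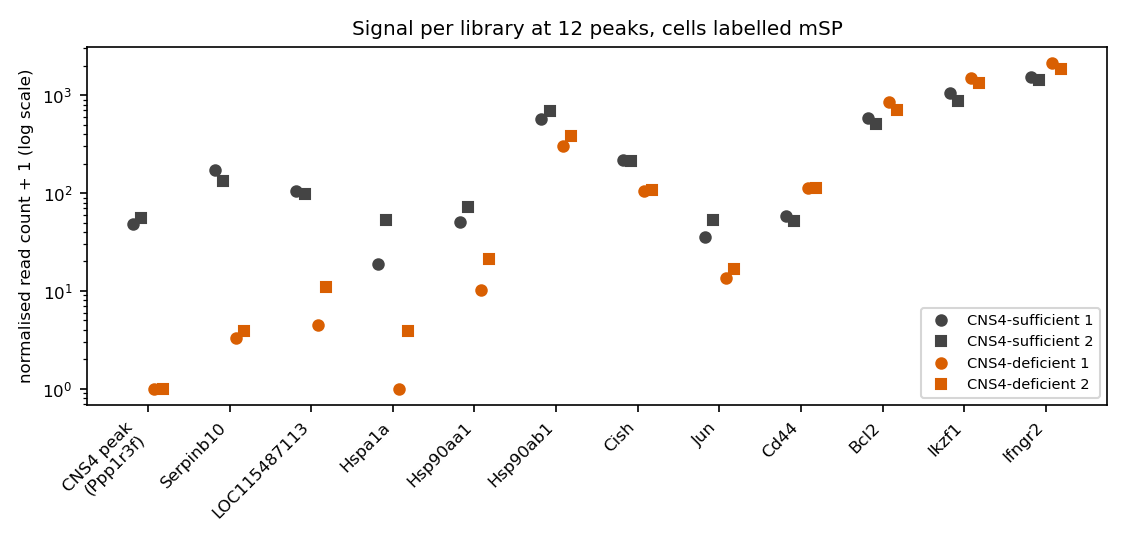
Normalised read counts plus 1, on a log axis, of 12 called peaks in the 4 libraries labelled mSP, sufficient in grey and deficient in orange, with circles for mouse 1 and squares for mouse 2. The CNS4 peak is at 0 reads in both deficient libraries. The genotypes do not overlap at any of the 12 peaks, which holds for every called peak and so follows from the choice.

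Peaks of heat shock genes were 13 of the 55 lower peaks. Their products are chaperones that fold proteins, and the promoters of many carry heat shock elements, inverted repeats of GAA bound by the factor Hsf1. The element was searched as GAANNTTCNNGAA on either strand in windows from 250 bases before to 50 after a gene start (RefSeq, GRCm38), and 198 of 32851 such windows (0.603%) held it. The start of Hspd1, the mitochondrial chaperonin, and that of Hsph1, a co-chaperone of Hsp70, both hold it and are shown because their peaks went different ways. At tested start peaks of Hspa1a, Hspa1b, Dnajb1 and Dnaja1, the windows of these genes themselves held no match, nor did a further start window of Hspd1. A window of Gm6297, on the other strand at a Dnaja1 start peak, held 1 match. Sequences are in the sense of the gene, and capitals mark the element, which in Hspd1 is a pair of overlapping matches.
Hspd1, chr1:55087883-55088182, minus strand: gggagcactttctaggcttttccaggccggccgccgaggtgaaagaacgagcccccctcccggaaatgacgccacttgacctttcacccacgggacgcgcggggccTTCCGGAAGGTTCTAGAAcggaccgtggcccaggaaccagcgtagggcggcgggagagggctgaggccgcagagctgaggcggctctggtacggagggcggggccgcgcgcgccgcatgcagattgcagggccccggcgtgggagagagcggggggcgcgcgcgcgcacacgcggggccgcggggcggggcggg
Hsph1, chr5:149636287-149636586, minus strand: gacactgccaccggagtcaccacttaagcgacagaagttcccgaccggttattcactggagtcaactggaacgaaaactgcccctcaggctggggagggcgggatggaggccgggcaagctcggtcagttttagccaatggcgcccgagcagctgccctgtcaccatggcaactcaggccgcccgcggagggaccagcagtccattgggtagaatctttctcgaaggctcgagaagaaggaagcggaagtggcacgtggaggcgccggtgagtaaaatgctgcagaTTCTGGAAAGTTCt
A match is a description of the letters in the window, not evidence of binding.

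The Hspd1 start peak, which covers that window, had 654, 707, 433 and 563 normalised reads, with both deficient values below both sufficient ones (fold -0.46, adjusted p = 0.0327). Its partner Hspe1 starts from the same site on the other strand and its signal cannot be told apart. The Hsph1 start peak had 935, 999, 947 and 989, and the genotypes overlapped (fold 0.00).

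Over the heat shock list, 13 of 61 tested peaks fell and 0 rose, against 0.0776% lower over all peaks, and 55 of the 61 folds were below 0. The median fold was -0.57, against 0.00 over all peaks. The list had been added once earlier results of these data had shown these genes, so its direction is no independent evidence. Peaks between genes had a median fold of -1.13 (6 of 26 fell), those in gene bodies -0.70 (6 of 17) and those at gene starts -0.25 (1 of 18, with 15 below 0). Over all peaks 0.0912%, 0.0926% and 0.0530% of these places were lower, and the difference between places was not tested. No peak of Hspa8, Hsp90aa1 or Hsp90ab1 was put at a gene start. Yet at Hspa8 and Hsp90aa1, peaks lay within 1000 bases of both ends of the gene. Start peaks of these genes are thus counted in the other places, and the medians by place cannot be read as a difference between places.

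Hsp90ab1, the constitutive Hsp90, had 3 of its 6 peaks called. The strongest, at chr17:45572417-45573112, had 573, 687, 301 and 379 normalised reads, a fold of -0.89 ± 0.11 (adjusted p = 7.18e-05), and was the one heat shock peak called whichever library was left out. Hsp90aa1, the inducible Hsp90, had 3 of 8 peaks called. They lay 1181 and 887 bases beyond an end of the gene and 146 bases beyond the other end, so start peaks can be among them. The largest change, at chr12:110690001-110690149, was from 50.2 and 71.7 to 9.18 and 20.1 (fold -2.06, adjusted p = 0.00251). Hspa8, the constitutive Hsp70, had 4 of 18 called. They ran from a strong peak across an end of the gene, at 1999.9, 2112, 1593 and 1724 (fold -0.31), to peaks beyond its other end with folds of -1.31 and -1.32.

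The called heat shock peaks with the largest folds were 1 each of the inducible Hsp70 genes Hspa1a and Hspa1b. Over all their tested peaks the median fold was -3.84 at Hspa1a (3 peaks) and -0.87 at Hspa1b (5 peaks), the latter close to the -0.91 of Hsp90ab1. The called Hspa1a peak had 17.9, 52.0, 0 and 2.87 normalised reads (fold -4.01, adjusted p = 0.00583), and the called Hspa1b peak 23.0, 43.9, 3.44 and 4.31 (fold -2.76, adjusted p = 0.00698). A stronger Hspa1a peak had 104, 261, 4.59 and 23.0 but differed so much within each genotype that it was not called (adjusted p = 0.509). These genes are near-identical copies, so the split of reads between them is uncertain. Dnajb1 and Dnaja1, Hsp40 co-chaperones, had no called peak, though all 11 and both of their folds were below 0 (medians -0.26 and -0.18). At Dnajb2, another Hsp40 gene, which was not on the list, the start peak had 187.2, 187.4, 97.5 and 111 (fold -0.85), and Tcp1, a subunit of the cytosolic chaperonin, had 254, 269, 149 and 171 (fold -0.71). Both were called, and the pair was chosen with these values in view.

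**Figure D3:**
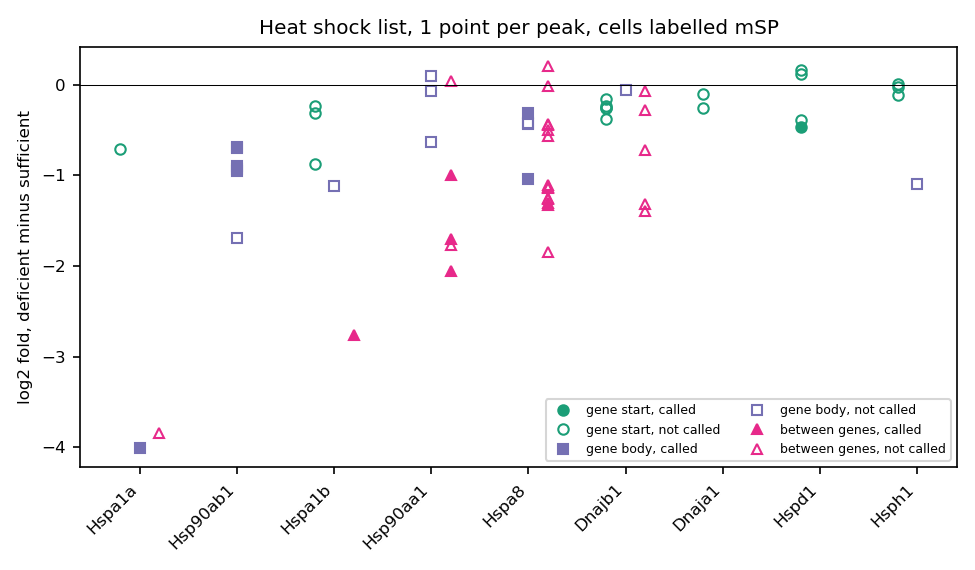
Log2 folds of the 61 tested peaks of the heat shock list in mSP cells, 1 point per peak, by gene and by place, with filled symbols for the 13 called. Points lie below 0 for 55 peaks, and the lowest points are at Hspa1a and Hspa1b. Places are as assigned, with no peak of Hspa8, Hsp90aa1 or Hsp90ab1 at a gene start.

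In the other populations of the same mice the median heat shock fold was -0.71 in smSP, -0.86 in preTreg and -0.37 in Treg cells; a difference of the list between populations was not tested. The number called in mSP was 2 with DESeq2, 6 with the spread of all 16 libraries, 1 without sufficient mouse 2, 29 without deficient mouse 2, and 0 with the other library of deficient mouse 2, although the median was then -0.61. Immediate early genes, which respond within minutes to stress, had folds below 0 at 90 of 122 peaks (median -0.18), where 50.6% of all peaks were below 0. Of the 122, 1 was called lower, where 0.0776% of all peaks were, in Jun, a subunit of AP-1, at 34.9, 52.0, 12.6 and 15.8 (fold -1.53, adjusted p = 0.0340). The part of these genes in the other results was not tested.

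Among the other lower peaks, that of Cish stood out for the closeness of its replicates. Cish is a STAT5 target that restrains cytokine and T cell receptor signalling. No other tested Cish peak was called, and the genotypes overlapped at the one at chr9:107312849-107313200 (151, 143, 177 and 144). The called peak at chr9:107295628-107295986, 673 bases from the gene start, had 215, 212, 103 and 108 normalised reads. Both deficient libraries were near one value and both sufficient ones near another (fold -1.01 ± 0.16, adjusted p = 0.00113). In smSP, preTreg and Treg cells the fold was -0.20, -0.07 and 0.08; the difference from mSP was called against Treg (adjusted p = 0.0276) and not against smSP or preTreg (0.921 and 0.273). Changes of about the same size were called at Nfkbib, an inhibitor of NF-kB (82.6, 70.8, 36.7 and 37.3; fold -1.03), and at Cd247, the zeta chain of the T cell receptor complex (78.3, 87.0, 47.0 and 34.4; fold -1.02). At Mcl1, a survival factor, a peak outside the gene had 149, 167, 82.6 and 102 (fold -0.77). At Zbtb1, a factor needed for lymphocyte development, the values were 51.1, 59.2, 13.8 and 20.1 (fold -1.66), and at Ece1, which encodes a peptidase, 28.1, 30.5, 3.44 and 4.31 (fold -2.64).

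The higher peaks were mostly strong sites away from gene starts. Of the 241, 226 (93.8%) lay outside gene starts, 143 in gene bodies and 83 between genes. Most tested peaks also lay outside gene starts, with 31328 in gene bodies and 13161 between genes against 26397 at gene starts. Called higher were 0.456%, 0.631% and 0.0568% of these, in that order. Among peaks with a mean of at least 200, 6.54% of those between genes were called higher (74 of 1131), 3.44% of those in gene bodies (112 of 3257) and 0.289% of those at gene starts (15 of 5187). The whole class moved slightly: the median fold of strong peaks outside gene starts was 0.09, and that of strong peaks at gene starts -0.04. Strong peaks outside gene starts held 20.8% and 20.3% of all signal in sufficient and 22.2% and 21.6% in deficient libraries. Among peaks outside gene starts with a mean under 200, the median fold was 0.01 and 51.9% were above 0, against 66.7% of the strong ones.

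**Figure D4:**
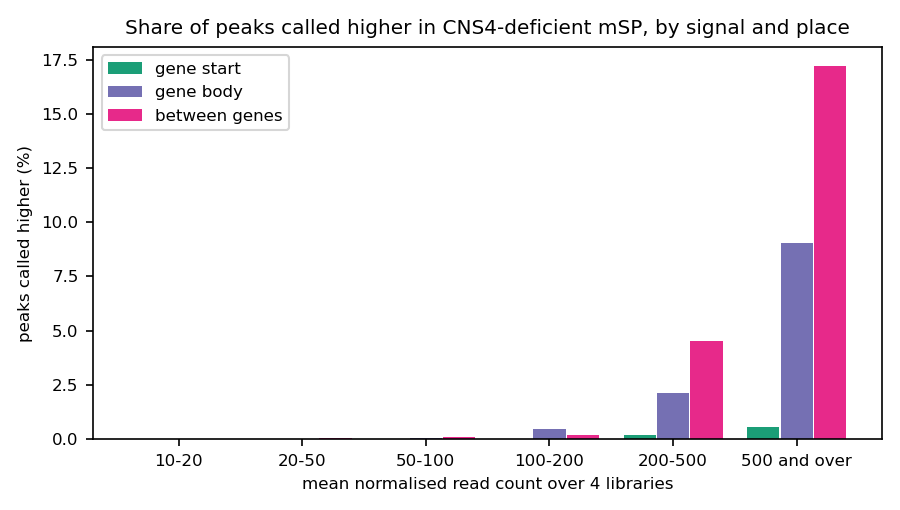
Percent of tested peaks called higher in deficient mSP cells, by mean normalised read count and place. Among peaks of 500 and over, 17.2% of those between genes, 9.06% of those in gene bodies and 0.578% of those at gene starts were called.

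Some of the higher sites lay at genes that act in lymphocytes, named here after their values were seen unless they stand in a list. A peak 12.8 kb from Ifngr2, a chain of the interferon gamma receptor, had 1521, 1409, 2112 and 1867 normalised reads (fold 0.44, adjusted p = 0.000465), and another near it 180, 157, 276 and 267 (fold 0.69). A peak in Ikzf1, the gene of the lymphoid factor Ikaros, had 1056, 871, 1481 and 1341 (fold 0.55, adjusted p = 0.000543). In both genes the 2 deficient libraries exceeded both sufficient ones, as at every peak called higher. Jak1, the kinase shared by many cytokine receptors, had 2 called peaks (folds 0.58 and 0.45), and Stk39, a stress-related kinase, had 3, with folds from 0.38 to 0.44. Peaks in the receptor genes Tgfbr2 and Il17ra were called with folds of 0.98 and 0.57. Peaks whose nearest gene was Il4ra, 9.24 kb away, and Il6st, 39.0 kb away, were called with folds of 0.57 and 0.36.

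Larger folds came from weaker peaks. In Prr5l, which encodes a partner of the kinase complex mTORC2, a peak had 10.2, 8.07, 34.4 and 34.4 normalised reads (fold 1.81), in Dcp1b, an mRNA decapping factor, 28.9, 17.9, 70.0 and 67.5 (fold 1.55), and in Elmo1, which acts in cell movement, 67.2, 69.0, 149.2 and 149.3 (fold 1.12). The deficient pair was close together at each of the 3. The Prr5l peak had a mean of 9.14 in sufficient libraries, so it reached the minimum mean of 10 only through the deficient ones. At Gm7103 the fold was also 1.82, but the deficient libraries lay far apart, at 33.3 and 86.1.

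Gene lists for T cell programs held few called peaks. T cell receptor signalling genes had 4 higher and 1 lower of 167 peaks (median fold 0.11). Among them were Csk, which restrains Lck, at 198, 185, 316 and 281 (fold 0.64) and 2 peaks near the phosphatase Ptprc (CD45; folds 0.53 and 0.52). CD4 lineage genes had 3 higher of 351 (median 0.09), in Bcl11b (2 peaks, folds 0.76 and 0.47) and Runx1 (0.62), both factors of T cell commitment. The maturation and egress list had 2 higher of 174 (median 0.17), both near Cd44, an adhesion receptor, at 174, 133, 297 and 227 and at 57.0, 51.1, 111 and 110.5. These counts stand beside 0.340% of all peaks and are too small to be read as particular to a list.

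IL-2 and STAT5 targets had 1 higher of 136, in the survival gene Bcl2 at 589, 510.1, 841 and 708 (fold 0.49), and 1 lower, Cish. The list of T cell receptor and co-stimulation response genes had 1 of 271, in the nuclear receptor gene Nr4a3 at 408, 326, 583 and 505 (fold 0.57). The NF-kB list had 1 lower of 192, Nfkbib. Treg signature genes had 0 called of 194 (median 0.03), immature thymocyte genes 0 of 155 (median 0.06) and interferon response genes 0 of 35 (median 0.01), in limma, with 20, 21 and 4 at an unadjusted p under 0.05; edgeR called 0, 1 and 1 of them and DESeq2 0. The largest Treg signature fold was at Ikzf2, Helios, with 23.0, 15.2, 9.18 and 5.74 (adjusted p = 0.366).

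Innate-like and effector T genes had 3 higher of 122, where 0.340% of all peaks were higher, in Il12rb2 (fold 0.37), in Rora (0.44) and 33.8 kb from Gzmb (0.64), and their summed signal was 11338 and 10699 in sufficient and 12590 and 11829 in deficient libraries. The sums of several other lists, T cell receptor signalling and CD4 lineage among them, were likewise higher in both deficient libraries, and the part of such cells in the other results was not tested. B cell genes had 0 called of 7, with summed signals of 395 to 439 in sufficient and 420.0 to 423 in deficient libraries. Myeloid and dendritic genes had 0 of 27, with 1996 to 2012 and 2025 to 2091, and erythroid and stromal genes 0 of 12, with 737 to 817 and 781 to 862. edgeR and DESeq2 also called 0 in each of these 3 lists, and 0, 2 and 0 peaks had an unadjusted p under 0.05 in limma. Defining genes of these cells, Cd79a, Cd79b and Ms4a1 for B cells and Csf1r, Itgax and Lyz2 for myeloid cells, had no tested peak.

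The mSP changes were shared to different degrees by the other populations of the same mice. In their own fits 38 peaks (0.0533%) were called in smSP, 971 (1.35%) in preTreg and 1947 (2.72%) in Treg cells. Of the 241 peaks higher in mSP, 237 of the 240 tested in preTreg cells were above 0 there, with a median fold of 0.43, and 109 were called, where 0.956% of all preTreg peaks were higher, which is 45.2% of the mSP and 15.8% of the preTreg calls. In smSP cells 233 of 240 were above 0 (median 0.32) and 6 were called, where 0.0280% of all peaks were higher; these are 2.49% of the mSP and 30.0% of the smSP calls. In Treg cells 127 of 239 were above 0, the median fold was 0.04 and 15 were called, where 1.66% of all peaks were higher; these are 6.22% of the mSP and 1.26% of the Treg calls. Of the 55 lower peaks, 49 were below 0 in smSP, 48 in preTreg and 32 of 52 in Treg cells. Those also called lower were 10 in smSP (18.2% of the mSP and 55.6% of the smSP calls; 0.0252% of all peaks), 17 in preTreg (30.9% and 6.03%; 0.391%) and 8 in Treg cells (14.5% and 1.05%; 1.06%). Each population was compared with its own libraries, but all came from the same 4 mice, so these counts are not independent of one another.

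**Figure D5:**
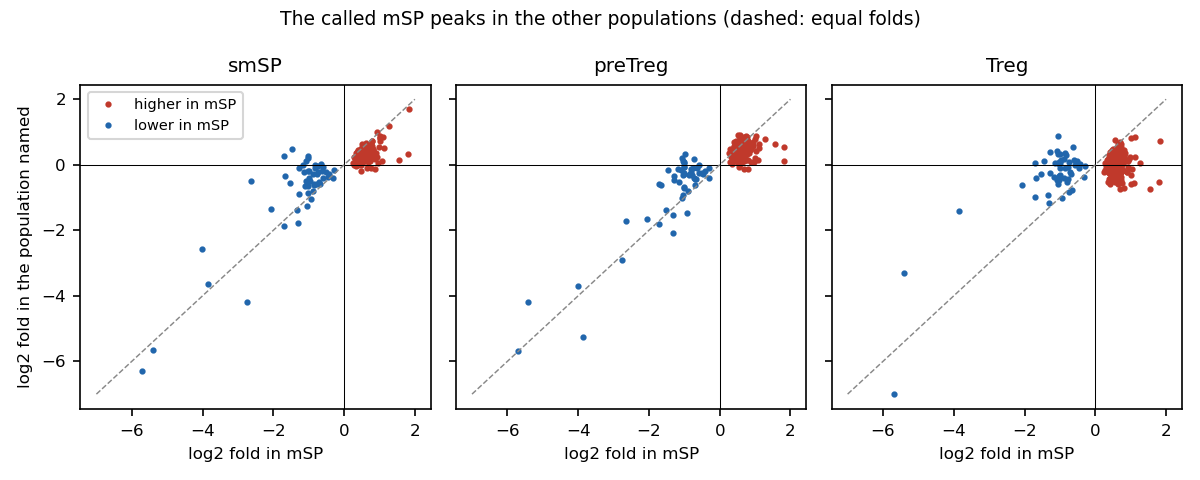
Log2 folds of the called mSP peaks in smSP, preTreg and Treg cells against their folds in mSP cells, with red for higher and blue for lower in deficient mSP cells and a dashed line of equal folds. The higher peaks lie mostly above 0 in smSP and preTreg cells (medians 0.32 and 0.43) and around 0 in Treg cells (median 0.04).

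The difference of the effect was tested on the within-mouse difference of mSP and the other population. Against smSP, limma called 0 of 70886 peaks (0.00%), with 3774 at an unadjusted p under 0.05, and edgeR called 0. This does not show that both populations respond alike. Against preTreg, 3 peaks (0.00423%) were called, none of them called in mSP. Against Treg, 160 (0.226%) were called, 117 (0.165%) with the larger fold in mSP and 43 (0.0607%) with the smaller; 27 of the former were among the higher mSP peaks and 8 of the latter among the lower ones. At Prr5l the Treg values were 111, 98.0, 77.8 and 67.2, so the fold was 1.81 in mSP and -0.52 in Treg (difference 2.34, adjusted p = 0.0137). The Prr5l peak had a sufficient mSP mean of 9.14 and reached the minimum mean of 10 only through the deficient mSP libraries. At Dcp1b the Treg values were 51.6, 47.6, 26.8 and 32.6 (difference 2.28, adjusted p = 0.0217). Without sufficient mouse 2 the count against Treg was 55, without deficient mouse 1 it was 575 and without deficient mouse 2 it was 3399.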

How the data were processed

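The authors deposited 1 table of a signal, reads per peak divided by 1 size factor per library, for 73442 peaks in 16 libraries. Per the submitters' processing notes, the tools were Trimmomatic 0.36, STAR 2.5.4b, SAMtools 1.10, Genrich, R 3.6.3 and DESeq2 1.24.0, with the mm10 build; their order, and whether reads were shifted for the transposase, are not given in the sources used here. Each library's values lay within 0.001 of a whole number of reads once divided by its smallest step, so reads were recovered; for sufficient Treg library 1 the step was too near 1 to be checked, and that library entered no count test.

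Peaks were tested with limma 3.58.1 in R 4.3.3, with its trend and robust options, on log2(value + 1) of the 4 mSP libraries. Benjamini-Hochberg adjustment ran over all tested peaks, with a threshold of 0.05. The 1 added to each value understates the folds of weak peaks. Differences between populations were tested by limma on within-mouse differences. edgeR 4.0.16 and DESeq2 1.42.0 on recovered reads were alternatives. Scripts were tested on simulated data. The 2556 peaks under the minimum mean of 10 were left out; just inside it stood a peak at Icos (mean 10.0) and just outside one at Col15a1 (mean 9.995). The floor of 3 reads covers counting error only, and ± values are limma standard errors, with the spread between mice.

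A peak within 1000 bases of a gene start was put there, otherwise in a gene body, otherwise to the nearest gene within 50000 bases. A RefSeq table of GRCm38.p6 was used, preferring protein-coding genes, and 98.8% of peaks got a gene. Hspa8 and Hsp90aa1 had no gene start in use, so their start peaks stand in the other places. Whether further genes were affected was not examined. Named peaks were all those of the Foxp3 neighbourhood, the largest folds and the highest signals in each direction, called members of the lists (or the largest fold where none was called), windows and genes with most calls, and the largest differences between populations; other names were chosen after their values were seen. The members and lists were chosen with earlier results of these data known. Lists are described by counts and medians, with no set test. Results of some genes that had been examined are left out of the text.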

Additional observations from a re-analysis of the deposited data

Results flagged for a closer look

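The CNS4 effect differed between mSP and preTreg cells at 3 peaks, by the test of the within-mouse difference. Near Gm40577 the difference of log2 folds, mSP minus preTreg, was 2.20: the mSP values were 5.11, 2.69, 12.6 and 23.0 normalised reads (sufficient mice 1 and 2, deficient mice 1 and 2), against 274, 241, 234 and 193 in preTreg cells. Its sufficient mSP values were below 10, so it reached the minimum mean only through the deficient mSP libraries. In Wbp1l the difference was -0.63, with 639, 616, 654 and 544 in mSP and 662, 668, 969 and 985 in preTreg cells. In Gm10222 it was 0.23, with 5938, 7122, 7613 and 10377 in mSP and 5872, 7310, 6618 and 8865 in preTreg cells. Its fold was above 0 in both, at 0.45 in mSP and 0.23 in preTreg cells. None of the 3 was called within mSP.

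It differed between mSP and Treg cells at 160 peaks. The largest difference was 4.00, in Gsdme, where mSP values were 62.1, 62.7, 74.6 and 54.5 and Treg values 18.2, 11.7, 0 and 0. The minimum mean of 10 was asked of the mSP libraries alone, and the Gsdme peak was below it in Treg cells. Its fold in mSP was 0.03. In B930018H19Rik the difference was 3.30, with 3.404, 0.896, 17.2 and 21.5 in mSP and 86.0, 95.2, 60.8 and 67.2 in Treg cells. Its sufficient mSP values were below 10, so it reached the minimum only through the deficient libraries. In Marchf3 the difference was -2.78, with 33.2, 17.0, 24.1 and 8.61 in mSP and 48.5, 39.3, 215 and 169.9 in Treg cells.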

How the results depend on the processing

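The count of 296 called mSP peaks became 157 with the spread of all 16 libraries, 525 with edgeR, 542 with edgeR and DESeq2 size factors, 98 with DESeq2, 42 with a log2 fold of at least 1, 890 with the replicate number as a block and 3 with the other library of deficient mouse 2; leaving out 1 mouse gave 6 to 1756. The replicate block was not used, since same-numbered mSP libraries deviated together with a correlation of only 0.031. Scaling to equal totals, quantile and cyclic loess normalization (the last added after seeing the data) gave 303, 315 and 308, with 76, 77 and 72 lower, and edgeR on 15 libraries, also added, gave 248. The heat shock count of 13 became 6, 2 and 0 with 16 libraries, DESeq2 and the other library of deficient mouse 2, DESeq2 having given no adjusted p for 9 of the 13, and 7 with the fold threshold or with peaks that overlap the gene body alone, gene starts included, and was 1 to 29 with 1 mouse left out. The share of higher peaks outside gene starts was 100% with the fold threshold and 91.5% to 100% with 1 mouse left out. Without sufficient mouse 1, sufficient mouse 2, deficient mouse 1 and deficient mouse 2 in turn, calls of a difference from smSP were 1, 5, 34 and 117, from preTreg 6, 5, 22 and 6, and from Treg 126, 55, 575 and 3399; without mouse pairing, over 16 libraries, they were 0, 0 and 344, and edgeR gave 1 for preTreg. The peak near LOC105245613 turned from higher to a fold of -1.23 (adjusted p = 0.894) with the other library of deficient mouse 2; the cause was not tested. edgeR on all 16 libraries and for the difference from Treg was not run, since whole reads of 1 Treg library could not be checked.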

Other observations

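At 6 tested peaks, deficient mSP library 2 alone had at most 3 normalised reads while the other 3 mSP libraries had at least 30; no other mSP library had such a peak. These peaks were chosen after their values were seen. At Gm9282, on chromosome 12, the mSP values were 103, 103, 82.6 and 0 (sufficient mice 1 and 2, deficient mice 1 and 2). The 4 libraries of deficient mouse 2, over all populations, had 0 to 3.84 there, and those of the other 3 mice 62.8 to 113. At Gm40864, also on chromosome 12, they had 0 to 0.96 against 29.0 to 64.6, and at Rbm20, on chromosome 19, 0 to 4.60 against 34.5 to 84.7. The other 3 peaks lie on chromosome 12 as well, 2 of them near Gm32719 and 1 in Greb1. None of the 6 was called for genotype, with adjusted p from 0.758 to 0.850 in limma.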
